A study of Mus musculus with 6 samples.

Results

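Transcripts of 40 genes of DNA replication and mitosis were measured in brown adipose tissue of cold-exposed mice, comparing 3 libraries from wild-type mice with 3 from the ADCY3∆AT genotype. The genes were taken as a fixed list of symbols, 13 for replication and 27 for mitosis, out of 54385 rows of the deposited table. All 40 were present, and all 40 passed the filter on low counts that left 18114 genes. The tissue was interscapular brown adipose tissue per the sample labels, although the word inguinal is used for the depot in the series design text. All mice were C57BL/6N, were 20 weeks old per the design text, had been switched from chow to a high-fat diet at 8 weeks and fed it for another 12 weeks, and spent 24 h at 4 °C. The comparison was therefore between genotypes within cold and high-fat feeding, with no warm and no chow group. ADCY3∆AT is named in the design text as a knockout of Adcy3-AT, and the series title speaks of a truncated, cold-induced form of adenylyl cyclase 3. Adenylyl cyclases make the second messenger cyclic AMP. The labels do not say how the allele was made or whether each replicate was a separate animal, so p-values measure the spread between these libraries, which may be partly technical.

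A cell that divides first copies its DNA and then separates the copies. In the replication phase the MCM helicase opens the double helix, the sliding clamp PCNA holds the polymerases on it, and enzymes such as ribonucleotide reductase supply the building blocks. In mitosis, cyclin B with the kinase CDK1 drives entry, kinesin motors and kinetochore proteins attach and move the chromosomes, and the anaphase-promoting complex ends the phase. Most of these transcripts are made only in cycling cells, although several replication genes are also used in DNA repair and nucleotide supply in resting cells. Mature brown adipocytes rarely divide, and in cold-exposed brown fat the dividing cells are known to include endothelial cells and adipocyte progenitors.

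The libraries held 44826777 to 54933588 estimated counts each. Markers of brown adipocytes were abundant in every library, with a summed level of 18218 to 19211 CPM (counts per 1000000 counts of the library) over 8 genes. Adcy3, the targeted gene, had 677, 728 and 652 CPM in wild-type replicates 1 to 3, followed by 349, 342 and 506 CPM in the same replicates of ADCY3∆AT, with a log2 fold change of -0.78 ± 0.14 (SE, edgeR adjusted p = 0.158). Of the cell type lists read here, skeletal muscle had the largest median log2 fold change (-3.17), and its 12 genes summed to 1926, 1220 and 3651 CPM across the wild-type libraries, whereas the ADCY3∆AT libraries had 3.48, 225 and 473 CPM. All 12 had a negative fold change, and Ckm and Myh7 were at 0 in ADCY3∆AT replicate 1.

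The mitosis genes lay higher in ADCY3∆AT than in wild type, while the replication genes lay near their wild-type level, and no member passed the test across all genes. Over the 27 mitosis genes the median log2 fold change of ADCY3∆AT relative to wild type was 0.36, or 1.29-fold. Over the 13 replication genes it was 0.06, or 1.04-fold, and over all 18114 genes tested it was 0.00. The difference between the mitosis and the replication medians was 0.31 on the log2 scale. These medians describe members chosen with earlier results of these data in view, so no test was made of them.

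Counted gene by gene, 0 of the 40 members passed at an adjusted p of 0.05 in edgeR, where 0.00552% of all genes tested did. The lowest adjusted p among the members was 0.209, for Smc4. DESeq2 called 0 members as well, with a lowest adjusted p of 0.0691 for Cenpf, and it called 1.17% of the genes it tested. All 27 mitosis genes had a positive log2 fold change, against 50.9% of all genes tested. At an unadjusted p under 0.05 in edgeR, 12 of the 27 were higher and 0 were lower, against 5.23% of all genes higher. The 3 ADCY3∆AT libraries lay above all 3 wild-type libraries for 13 of the 27, against 7.68% of all genes. Of the 13 replication genes 11 had a positive fold change. At an unadjusted p under 0.05, Mcm4 was higher and Rrm1 was lower, the latter against 5.78% of all genes lower. In bulk tissue, more dividing cells and more RNA in each dividing cell cannot be told apart.

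**Figure D1:**
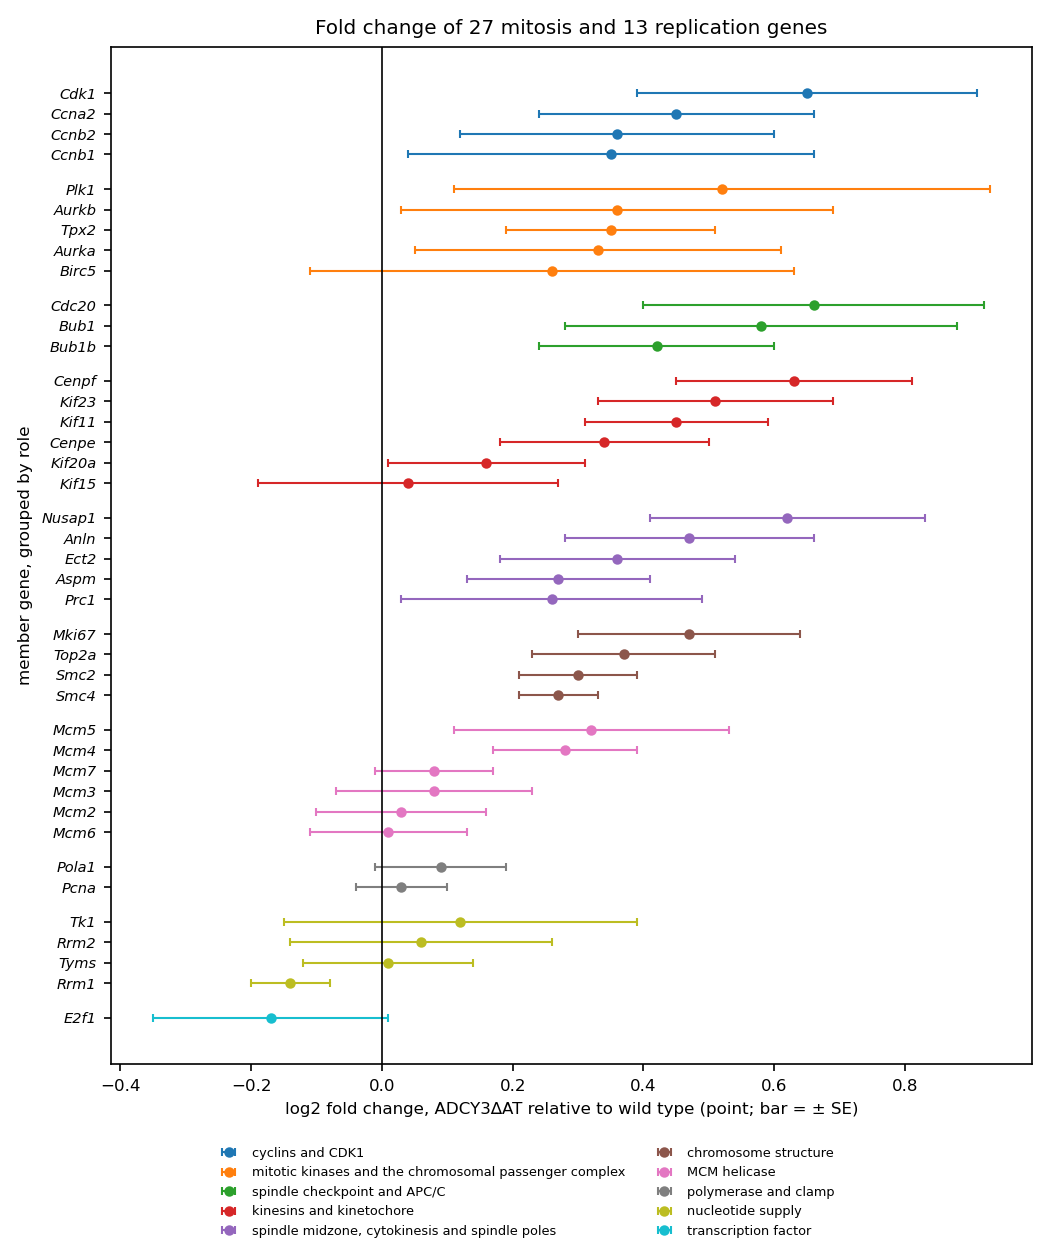
Log2 fold change of each of the 40 genes, ADCY3∆AT relative to wild type (x axis; point, with a bar of ± SE from the edgeR fit), grouped by role on the y axis and ordered by size within a role. All 27 mitosis genes lie to the right of 0, from 0.04 (Kif15) to 0.66 (Cdc20), and the 13 replication genes lie from -0.17 (E2f1) to 0.32 (Mcm5).

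The level of the mitosis genes differed between the ADCY3∆AT libraries. Each gene's log2 CPM was set against its mean in the 3 wild-type libraries, and the median over the 27 mitosis genes was 0.07, -0.09 and 0.03 in wild-type replicates 1 to 3. It was 0.11, 0.35 and 0.71 in ADCY3∆AT replicates 1 to 3. ADCY3∆AT replicate 1 thus lay close to wild type and replicate 3 lay far above it. The same median over the 13 replication genes was 0.00, -0.08 and 0.04 in the wild-type libraries, followed by -0.10, -0.02 and 0.21 in those of ADCY3∆AT. Mitosis minus replication was 0.07, -0.01 and -0.01 in the wild-type libraries, followed by 0.21, 0.37 and 0.50 in those of ADCY3∆AT, so the groups did not overlap in this difference, which is a description of chosen genes and has no test.

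ADCY3∆AT replicate 3 was the highest of the 6 libraries for 26 of the 27 mitosis genes, against 15.7% of all genes tested. The exception was Kif20a, which was highest in ADCY3∆AT replicate 2. The same library was the highest for 8 of the 13 replication genes. Replicate 1 of ADCY3∆AT lay above every wild-type library for 15 mitosis genes, replicate 2 for 20 and replicate 3 for 27, against 29.2%, 28.9% and 26.4% of all genes tested. For the replication genes these counts were 2, 3 and 8. Without ADCY3∆AT replicate 3 the mitosis median was 0.24, 24 of 27 genes were positive (50.3% of all genes) and 5 were higher at an unadjusted p under 0.05 in edgeR (6.22% of all genes). The replication median was then -0.01, with 6 of 13 positive. The count of 12 mitosis genes also depended on wild type, since it was 7 without wild-type replicate 2 (3.2% of all genes) and 6 without wild-type replicate 3 (4.47%).

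**Figure D2:**
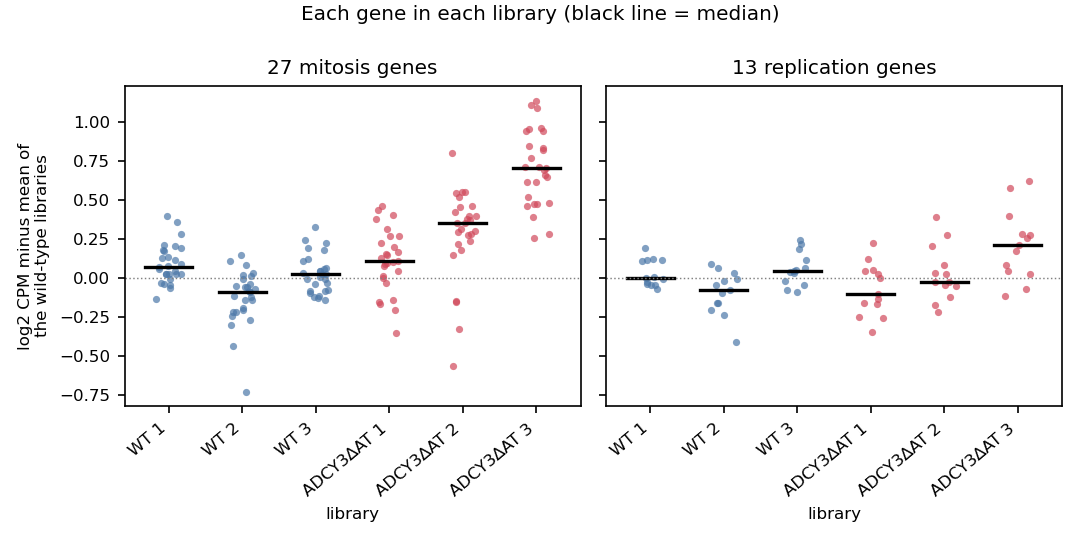
Each point is 1 gene in 1 library, as log2 CPM minus the mean of the wild-type libraries (y axis), for the 27 mitosis genes and the 13 replication genes, with the 6 libraries on the x axis and the median as a black line. The mitosis median steps from 0.11 to 0.35 to 0.71 over the 3 ADCY3∆AT libraries, and the replication median is 0.21 in ADCY3∆AT replicate 3 and at or below 0.04 in the other 5 libraries.

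The letters of the promoters were read for both groups of genes. They describe genes that were grouped by known function, and not the difference between the genotypes. Genes of the G2 and mitotic phases are known to be controlled through CCAAT boxes, bound by NF-Y, and the cell cycle homology region, bound by the MuvB complexes, whereas replication genes are known targets of E2F. RefSeq promoter windows (GRCm38.p6, from 250 bases before to 50 bases after each start) were matched for 22 of 27 mitosis genes and 12 of 13 replication genes. They were searched on both strands for CCAAT, for TTTGAA or TTCGAA (cell cycle homology region) and for TTTCGCG or TTTGGCG (E2F). A match is a string of letters and not a site shown to be bound, and the searches for TTTCGCG and TTTGGCG can find overlapping matches on opposite strands. Of the mitosis genes 18 (81.8%) held the cell cycle homology letters, against 2 replication genes (16.7%) and 21.7% of all 27025 genes. CCAAT was found in 18 mitosis genes (81.8%) and 9 replication genes (75%), against 41.1% of all genes. CCAAT together with the cell cycle homology letters in 1 window was found in 16 mitosis genes (72.7%), 2 replication genes (16.7%) and 8.61% of all genes. The E2F letters were found in 2 mitosis genes (9.09%), 5 replication genes (41.7%) and 2.68% of all genes.

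Stretches of 160 bases that end just before the RefSeq start are shown for 3 mitosis genes and 1 replication gene, because they show the searched letters in genes of both groups. They run 5′ to 3′ on the gene's own strand, and capitals mark the matches to the searched letters or their reverse complements. Ccnb2 is at chr9:70421555-70421714 (minus strand), Cdk1 at chr10:69352913-69353072 (minus strand), Cdc20 at chr4:118437344-118437503 (minus strand) and Mcm5 at chr8:75109349-75109508 (plus strand).
Ccnb2: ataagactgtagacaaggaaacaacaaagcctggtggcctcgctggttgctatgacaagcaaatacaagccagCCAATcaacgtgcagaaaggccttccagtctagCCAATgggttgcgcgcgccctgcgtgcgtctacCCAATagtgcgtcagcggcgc
Cdk1: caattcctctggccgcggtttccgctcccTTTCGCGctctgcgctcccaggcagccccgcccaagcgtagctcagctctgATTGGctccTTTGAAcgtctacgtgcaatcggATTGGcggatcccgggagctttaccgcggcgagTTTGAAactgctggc
Cdc20: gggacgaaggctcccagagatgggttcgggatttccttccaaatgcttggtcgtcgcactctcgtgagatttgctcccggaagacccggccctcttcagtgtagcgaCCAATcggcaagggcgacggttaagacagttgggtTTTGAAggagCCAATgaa
Mcm5: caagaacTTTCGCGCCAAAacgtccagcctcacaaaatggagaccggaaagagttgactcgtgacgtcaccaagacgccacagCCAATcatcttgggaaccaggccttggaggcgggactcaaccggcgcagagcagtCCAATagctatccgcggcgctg
Ccnb2 has 3 CCAAT boxes in this stretch, and its cell cycle homology letters lie elsewhere in the 300-base window. In its stretch Cdk1 has 2 boxes in reverse (ATTGG), 2 copies of TTTGAA and 1 E2F match farther upstream. Cdc20 has TTTGAA between 2 CCAAT boxes. Mcm5 has 2 overlapping E2F matches and 2 CCAAT boxes, and no cell cycle homology letters.

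**Figure D3:**
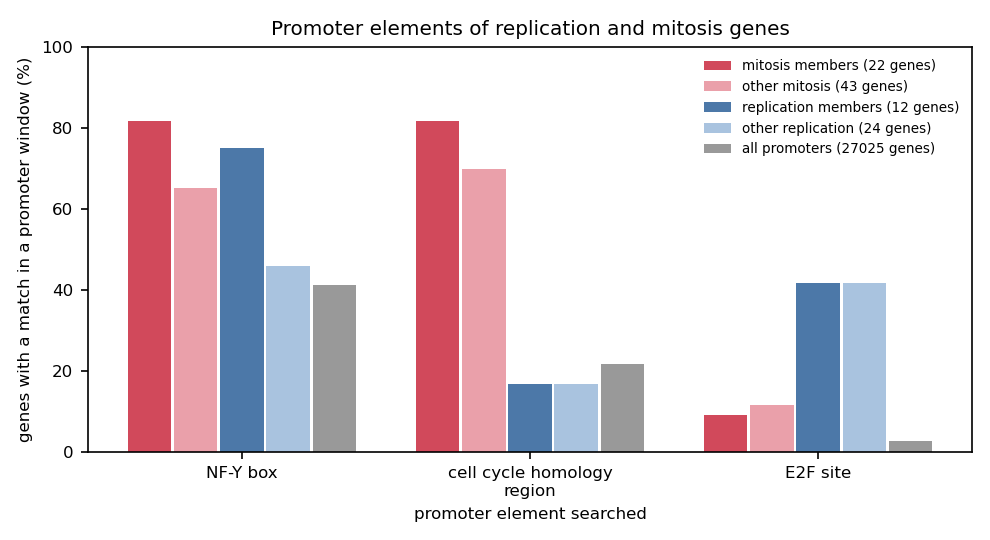
Share of genes (y axis, %) with a match to each of 3 promoter elements (x axis) in a window from 250 bases before to 50 bases after the start, for the mitosis and replication members, for the other mitosis and replication genes and for all genes. The cell cycle homology region is found in 81.8% of mitosis members and 16.7% of replication members, and the E2F letters in 9.09% and 41.7%.

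The 4 genes of chromosome structure had the highest counts of the mitosis genes. All 4 lay above every wild-type library in ADCY3∆AT, against 7.68% of all genes. They had an unadjusted p under 0.05 in edgeR, against 5.23% of all genes higher. The latter held for 2 of the 4 without wild-type replicate 2, and for 3 without replicate 3 of wild type or of ADCY3∆AT. Smc4, a core subunit of the condensin complexes that compact chromosomes (ENSMUSG00000034349, protein coding, chromosome 3, 69004738 to 69034623, plus strand, GRCm38), had levels of 14.5, 14.1 and 15 CPM among wild-type libraries, compared with 16.9, 17.7 and 17.7 CPM among those of ADCY3∆AT. All 3 ADCY3∆AT libraries were nearly level, so that the gap did not rest on 1 library. The log2 fold change was 0.27 ± 0.06 (SE, edgeR adjusted p = 0.209), and it was 0.25 without ADCY3∆AT replicate 3. Smc2, its partner in condensin, had 7.31, 6.54 and 7.39 CPM against 8.53, 8.35 and 9.28 CPM (log2 fold change 0.30 ± 0.09, adjusted p = 0.313).

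Mki67, the proliferation marker Ki-67 that coats mitotic chromosomes (ENSMUSG00000031004, chromosome 7, 135689784 to 135716361, minus strand), had 22, 19.9 and 20.2 CPM across the wild-type libraries, whereas the ADCY3∆AT libraries had 22.3, 26.5 and 37.4 CPM. The lowest ADCY3∆AT library was barely above the highest wild-type library, and replicate 3 stood well above the rest. The log2 fold change was 0.47 ± 0.17 (SE, edgeR adjusted p = 0.362), and 0.24 without that library. Top2a, the topoisomerase that untangles sister chromatids (ENSMUSG00000020914, chromosome 11, 98992943 to 99024189, minus strand), had 11.8, 10.9 and 12.0 CPM against 12.3, 14.3 and 18.3 CPM. Its log2 fold change was 0.37 ± 0.14 (adjusted p = 0.382), and 0.20 without ADCY3∆AT replicate 3. Mki67 made up 18.3% to 21.6% of the summed CPM of the 27 mitosis genes in each library.

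Among 6 kinesins and kinetochore proteins, all had a positive fold change, 3 with an unadjusted p under 0.05 in edgeR, against 5.23% of all genes higher. Cenpf, a large kinetochore protein made before and during mitosis (ENSMUSG00000026605, chromosome 1, 189640606 to 189688086, minus strand), had levels of 5.32, 3.82 and 5.12 CPM among wild-type libraries, compared with 6.12, 6.93 and 9.10 CPM among those of ADCY3∆AT. The groups did not overlap, and the log2 fold change was 0.63 ± 0.18 (SE, edgeR adjusted p = 0.288) with all libraries and 0.46 without ADCY3∆AT replicate 3. Kif11, the motor that pushes spindle poles apart, had 3.61, 3.36 and 4.20 CPM against 4.64, 4.90 and 5.70 CPM, again without overlap (0.45 ± 0.14, adjusted p = 0.313). Kif23, a motor of the spindle midzone, had 2.33, 2.32 and 2.23 CPM against 2.56, 3.31 and 3.94 CPM (0.51 ± 0.18, adjusted p = 0.367).

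The other 3 of these genes overlapped between the groups. For Cenpe, a kinetochore motor, the log2 fold change was 0.34 ± 0.16 (SE), and Kif20a, a motor needed for cytokinesis, had 0.16 ± 0.15. Kif15, a spindle motor that works beside Kif11, had 0.04 ± 0.23, with 2.34 and 2.07 CPM in ADCY3∆AT replicates 1 and 2, below all wild-type libraries, and 3.66 CPM in replicate 3. Its log2 fold change was -0.24 without replicate 3, and it was -0.01 in limma voom.

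Among the cyclins and their kinase, Cdk1 had the largest fold change. Cdk1, the kinase that drives entry into mitosis (ENSMUSG00000019942, chromosome 10, 69335146 to 69352938, minus strand), had 2.41, 1.70 and 1.86 CPM across the wild-type libraries, whereas the ADCY3∆AT libraries had 2.03, 3.47 and 3.87 CPM. Replicates 2 and 3 of ADCY3∆AT lay above wild type and replicate 1 lay within it. The log2 fold change was 0.65 ± 0.26 (SE, edgeR adjusted p = 0.413). Ccna2, cyclin A2 of the replication and G2 phases, had 3.92, 3.29 and 4.40 CPM against 3.85, 5.08 and 6.89 CPM (0.45 ± 0.21, adjusted p = 0.508, and 0.21 without ADCY3∆AT replicate 3). The B cyclins Ccnb1 and Ccnb2 had 0.35 ± 0.31 and 0.36 ± 0.24, with overlapping groups. Ccnb1 was at 1.16 CPM in ADCY3∆AT replicate 1, inside the wild-type range of 1.09 to 1.77 CPM.

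The spindle checkpoint delays anaphase until every chromosome is attached, and its target Cdc20 activates the anaphase-promoting complex. Cdc20 had levels of 1.64, 1.91 and 1.62 CPM among wild-type libraries, compared with 1.84, 2.54 and 3.77 CPM among those of ADCY3∆AT, with 1 ADCY3∆AT library inside the wild-type range. Its log2 fold change of 0.66 ± 0.26 (SE, edgeR adjusted p = 0.413) was the largest of the 40 members in the fit to all 6 libraries. Without ADCY3∆AT replicate 3 it was 0.35, below Cdk1 (0.47), Cenpf (0.46), Nusap1 (0.42), Kif11 (0.36) and Kif23 (0.36). Bub1b, a checkpoint protein that holds Cdc20, had 3.01, 2.82 and 2.52 CPM against 3.04, 3.62 and 4.52 CPM (0.42 ± 0.18, adjusted p = 0.433, and 0.26 without ADCY3∆AT replicate 3). Bub1, the checkpoint kinase at kinetochores, had 1.09, 1.08 and 2.07 CPM in ADCY3∆AT beside wild-type values of 0.856 to 1.02 CPM (0.58 ± 0.30, adjusted p = 0.526). For Bub1 the value without ADCY3∆AT replicate 3 was 0.20.

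Mitotic kinases, the chromosomal passenger complex and the spindle protein Tpx2 gave 0 of 5 genes at an unadjusted p under 0.05 in edgeR, against 5.23% of all genes higher. They included the member with the lowest counts. Plk1, a kinase that acts through mitosis, had 0.583, 0.363 and 0.416 CPM across the wild-type libraries, whereas the ADCY3∆AT libraries had 0.394, 0.549 and 1.03 CPM. These values rest on 16 to 48 counts per library, and at 16 counts the counting error alone is 25% of the value. Its log2 fold change was 0.52 ± 0.41 (SE) and 0.05 without ADCY3∆AT replicate 3. Aurka, the kinase of the spindle poles, had 0.33 ± 0.28, and Aurkb, the kinase of the passenger complex, had 0.36 ± 0.33. Birc5, the passenger protein survivin, had 0.833 CPM in ADCY3∆AT replicate 2, the lowest of the 6 libraries, and 2.47 CPM in replicate 3, the highest. Its log2 fold change of 0.26 ± 0.37 turned to -0.29 without replicate 3. Tpx2, which activates Aurora A on the spindle, did not overlap, with wild-type values of 2.42 to 2.57 CPM below the ADCY3∆AT values of 2.65, 3.45 and 3.46 CPM (0.35 ± 0.16, edgeR adjusted p = 0.469).

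Among 5 spindle and cytokinesis proteins, all had a positive fold change and 3 did not overlap between the groups, against 7.68% of all genes. Nusap1, a spindle protein that binds microtubules (ENSMUSG00000027306, chromosome 2, 119618298 to 119651244, plus strand), had levels of 1.73, 1.57 and 1.44 CPM among wild-type libraries, compared with 2.10, 2.13 and 3.08 CPM among those of ADCY3∆AT (log2 fold change 0.62 ± 0.21, SE, edgeR adjusted p = 0.336). Anln, the anillin of the cleavage furrow, had 4.01, 3.27 and 3.17 CPM against 3.85, 4.45 and 6.18 CPM (0.47 ± 0.19, adjusted p = 0.431, and 0.25 without ADCY3∆AT replicate 3), so 1 ADCY3∆AT library lay inside the wild-type range. Ect2, which switches on the furrow's RhoA, had 0.36 ± 0.18 and Aspm, of the spindle poles, 0.27 ± 0.14, both without overlap. Prc1, which bundles midzone microtubules, had 0.26 ± 0.23 and -0.03 without ADCY3∆AT replicate 3.

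**Figure D4:**
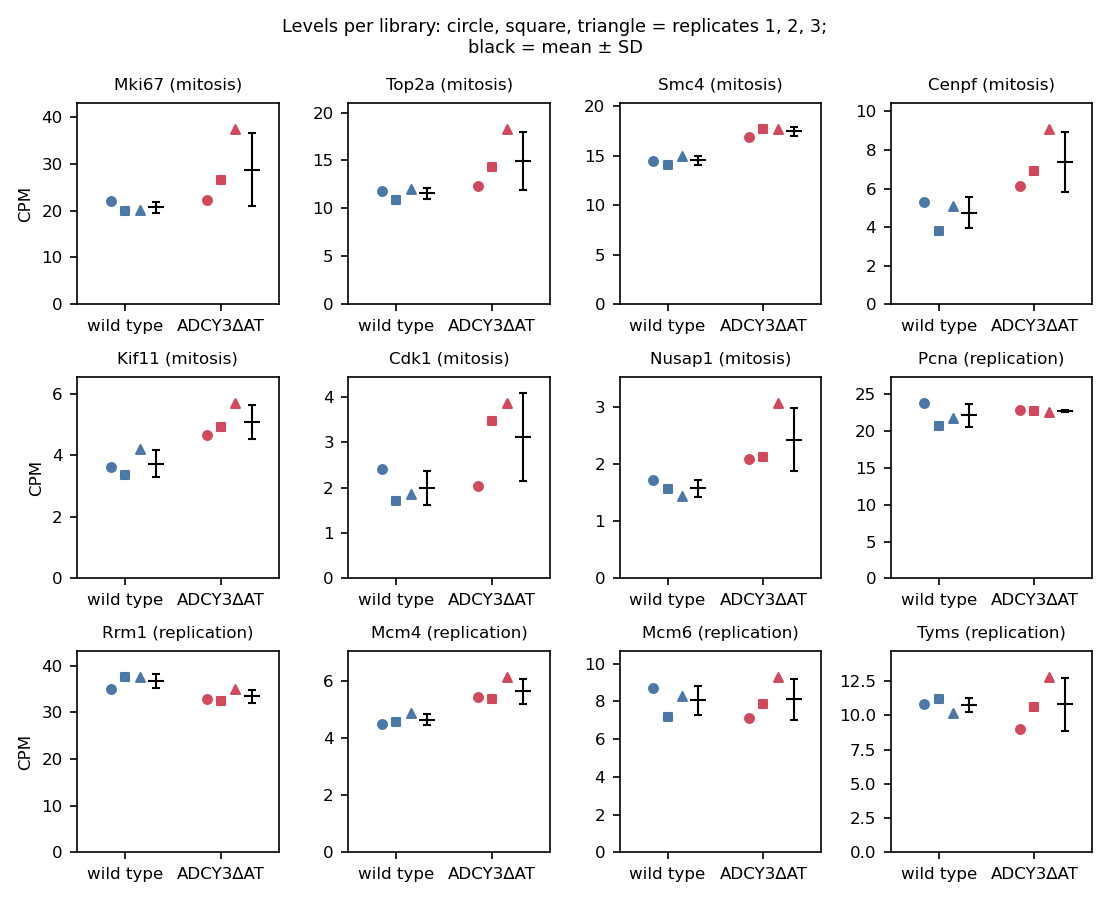
CPM (y axis, from 0) of 7 mitosis and 5 replication genes in each library, with wild type in blue and ADCY3∆AT in red, replicates 1 to 3 as circle, square and triangle, and the group mean ± SD in black. Smc4 is level at 16.9 to 17.7 CPM in ADCY3∆AT, above the 14.1 to 15 CPM of wild type, Mki67 reaches 37.4 CPM in ADCY3∆AT replicate 3, and Pcna overlaps between the groups.

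The MCM helicase is a ring of 6 different subunits, and its genes did not share 1 size of difference. Mcm4 (ENSMUSG00000022673, chromosome 16, 15623897 to 15637400, minus strand) had 4.48, 4.56 and 4.86 CPM across the wild-type libraries, whereas the ADCY3∆AT libraries had 5.42, 5.34 and 6.13 CPM. It was the only replication gene of the 13 whose groups did not overlap, against 7.68% of all genes not overlapping and higher. Its log2 fold change was 0.28 ± 0.11 (SE, edgeR adjusted p = 0.405). Mcm5 had a log2 fold change of 0.32 ± 0.21, with overlapping groups and a wild-type library as low as 3.09 CPM. The log2 fold changes were 0.03 ± 0.13 for Mcm2, 0.08 ± 0.15 for Mcm3, 0.01 ± 0.12 for Mcm6 and 0.08 ± 0.09 for Mcm7. Mcm6 had levels of 8.69, 7.18 and 8.27 CPM among wild-type libraries, compared with 7.13, 7.88 and 9.30 CPM among those of ADCY3∆AT, so both groups covered about the same range. The signs of Mcm2, Mcm3 and Mcm6 turned when single libraries were left out, and that of Mcm6 turned in limma voom as well.

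Among the genes of the clamp, the polymerase and the nucleotide supply, Rrm1 was the only one with an unadjusted p under 0.05 in edgeR. It was lower in ADCY3∆AT, against 5.78% of all genes lower. The count of these genes lower at an unadjusted p under 0.05 was 0 in DESeq2 and limma voom. In edgeR the count was also 0 when wild-type replicate 2 or 3, or ADCY3∆AT replicate 1 or 2, was left out. Pcna, the sliding clamp (ENSMUSG00000027342, chromosome 2, 132249162 to 132253314, minus strand), had 23.8, 20.7 and 21.8 CPM across the wild-type libraries, whereas the ADCY3∆AT libraries had 22.8, 22.7 and 22.6 CPM, a log2 fold change of 0.03 ± 0.07 (SE, edgeR adjusted p = 0.885). Its 3 ADCY3∆AT libraries lay within the wild-type range. Pola1, the catalytic subunit of the primase-bound polymerase alpha, had 0.09 ± 0.10. Rrm1, the large subunit of ribonucleotide reductase (ENSMUSG00000030978, chromosome 7, 102441695 to 102469771, plus strand), had levels of 34.9, 37.6 and 37.6 CPM among wild-type libraries, compared with 32.8, 32.5 and 34.9 CPM among those of ADCY3∆AT, with a log2 fold change of -0.14 ± 0.06 (adjusted p = 0.432). Wild-type replicate 1 and ADCY3∆AT replicate 3 met at 34.9 CPM.

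Rrm2, the small subunit that is made in the replication phase, did not follow Rrm1 and had 1.51, 1.61 and 1.42 CPM across the wild-type libraries, whereas the ADCY3∆AT libraries had 1.27, 1.61 and 1.85 CPM (log2 fold change 0.06 ± 0.20, SE). Tyms and Tk1, which make thymidine nucleotides, had 0.01 ± 0.13 and 0.12 ± 0.27. Tk1 had 1.25, 1.46 and 2.47 CPM in ADCY3∆AT beside wild-type values of 1.55 to 1.64 CPM, so that 2 libraries lay below wild type and 1 above it. All 4 nucleotide genes had a negative fold change without ADCY3∆AT replicate 3, with a median of -0.15. E2f1, the transcription factor of the replication genes, had levels of 1.68, 1.52 and 1.95 CPM among wild-type libraries, compared with 1.55, 1.46 and 1.57 CPM among those of ADCY3∆AT (-0.17 ± 0.18, edgeR adjusted p = 0.776).

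Levels of different genes were compared per kilobase of merged GENCODE exons, which need not be the transcripts present. In wild type Pcna was highest at 9.22 ± 0.66 CPM per kilobase (SD, n = 3), followed by Rrm1 at 3.33 ± 0.14 and Smc4 at 2.78 ± 0.0829. Replication genes held 9 of the 13 highest places, and mitosis genes held 12 of the 13 lowest. Several neighbours did not differ beyond their spread, such as Tyms (1.76 ± 0.0845 CPM per kilobase), Mcm3 (1.74 ± 0.282) and Mcm6 (1.72 ± 0.168). At the low end were Bub1 (0.217 ± 0.0192 CPM per kilobase) and Plk1 (0.206 ± 0.0522). The exons of 7 members overlap those of another tested gene on the opposite strand (Ccna2, Cdc20, Kif20a, Mcm7, Nusap1, Prc1 and Tk1), and no source used here states whether counting used strand, so their values are less certain. A tested pseudogene of Ccnb2, Ccnb2-ps, had a mean of 0.78 CPM beside 1.59 CPM for Ccnb2.

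Other genes of the same pathway were taken from lists by their known function, with earlier results of these data known. They were read in the same 6 libraries, so their values are not independent of those of the members. Of 50 other mitosis genes 48 had a positive log2 fold change, with a median of 0.35, and 9 were higher and 0 lower at an unadjusted p under 0.05, against 50.9% of all genes positive and 5.23% higher. The 9 were 4 without ADCY3∆AT replicate 3 and 5 when wild-type replicate 2 or replicate 2 of ADCY3∆AT was left out. None of the 50 passed in edgeR or DESeq2. The lowest p-values belonged to Cenpa, the centromeric histone (0.55 ± 0.14, SE, edgeR adjusted p = 0.25), Cks2, a subunit of CDK complexes (0.73 ± 0.20, adjusted p = 0.252), and Cit, a kinase of cytokinesis (0.72 ± 0.22, adjusted p = 0.313). Foxm1, a transcription factor of mitotic genes, had 0.38 ± 0.25. Summed over the list, these genes stood at 151, 133 and 140 CPM across the wild-type libraries, whereas the ADCY3∆AT libraries had 147, 155 and 195 CPM, which placed ADCY3∆AT replicate 3 highest again. The sum of ADCY3∆AT replicate 1 lay within the wild-type range, so the groups overlapped. ADCY3∆AT replicates 1 to 3 lay above every wild-type library for 14, 29 and 46 of the 50. The shares of all genes tested were 29.2%, 28.9% and 26.4%. Without ADCY3∆AT replicate 3 the median was 0.22, with 40 of 50 positive.

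Of 35 other replication genes 25 had a positive log2 fold change, with a median of 0.11, and 2 were higher and 0 lower at an unadjusted p under 0.05, against 5.23% of all genes higher, with 0 called in edgeR or DESeq2. The 2 were 0 without wild-type replicate 3 and 1 when wild-type replicate 2 or replicate 3 of ADCY3∆AT was left out. With all libraries they were Rfc3, of the clamp loader (0.53 ± 0.19, SE), and Chaf1a, of the chromatin assembly factor (0.53 ± 0.20), and Orc1 of the origin recognition complex had -0.84 ± 0.48 at a mean of 0.258 CPM in wild type. The cell cycle homology letters were found in 69.8% of the other mitosis genes with a promoter window and in 16.7% of the other replication genes, and the E2F letters in 11.6% and 41.7%.

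Genes that govern entry into the cycle had medians near 0. Of 10 G1 cyclins and kinases the median log2 fold change was 0.09, with Cdk2 at 0.18 ± 0.09 (SE) and Ccnd3 at 0.15 ± 0.07. Cdk6 alone had an unadjusted p under 0.05 (0.26 ± 0.11, edgeR adjusted p = 0.443), against 5.23% of all genes higher. When wild-type replicate 2 or replicate 1 of ADCY3∆AT was left out the count was 0. Of 16 inhibitors and pocket proteins 15 were tested, with a median of 0.07. The 3 lowest p-values were those of the antiproliferative genes Btg2 (0.37 ± 0.11) and Btg1 (0.13 ± 0.05) and the CDK inhibitor Cdkn1b (0.18 ± 0.08). All 3 were higher in ADCY3∆AT without overlap, against 7.68% of all genes, and none passed the threshold. Their unadjusted p was under 0.05 in edgeR, against 5.23% of all genes higher. That count for the list was 1 when wild-type replicate 2 or replicate 1 of ADCY3∆AT was left out. Cdkn1a, the inhibitor p21, had 0.24 ± 0.12. The 9 other E2F factors and partners had a median of -0.04, with E2f6 at -0.10 ± 0.05, E2f2 at -0.26 ± 0.17 and E2f3 at 0.11 ± 0.14. In these 3 lists 0 genes passed in edgeR or DESeq2.

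Markers of cell types that can hold dividing cells were read in the same libraries. The summed level of 10 endothelial markers was 1247, 1173 and 1201 CPM among wild-type libraries. It was 1255, 1322 and 1347 CPM among those of ADCY3∆AT, so the groups did not overlap. The ratio of group means was 1.08 for the endothelial sum. Of the endothelial markers 8 of 10 had a positive fold change, led by the junction genes Cdh5 (0.28 ± 0.07, SE) and Cldn5 (0.81 ± 0.20) and by Pecam1 (0.19 ± 0.06). None passed in edgeR with the filter on low counts. Without it 1 passed (adjusted p = 0.0181), in a fit that called 59 genes higher and 155 lower of 30714. Cdh5 passed in DESeq2 (adjusted p = 0.02), which called 1.17% of the genes it tested. The 10 markers of fibroblasts and progenitors summed to 509, 431 and 518 CPM across the wild-type libraries. The ADCY3∆AT libraries had 510, 536 and 562 CPM, with overlapping groups and 8 of 10 genes positive. The lowest p-values there were those of Fbn1 (0.33 ± 0.14), Col1a1 (0.38 ± 0.18) and Col3a1 (0.21 ± 0.11).

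The 10 macrophage markers summed to 193, 118 and 139 CPM among wild-type libraries, compared with 136, 205 and 196 CPM among those of ADCY3∆AT, with 8 of 10 positive and a median of 0.15. This count rested on single wild-type libraries, with 5 of 10 positive and a median of 0.01 without wild-type replicate 2, and 10 of 10 with 0.40 without wild-type replicate 1. Itgax had 0.97 ± 0.26, Csf1r 0.31 ± 0.14 and Lyz2 0.39 ± 0.23 (SE). The 7 B cell markers summed to 18.9, 11 and 16.2 CPM across the wild-type libraries. The ADCY3∆AT libraries had 34.4, 41.6 and 16.8 CPM, so ADCY3∆AT replicate 3 lay within the wild-type range. Of the 6 tested, all had a positive fold change (4 of 6 without ADCY3∆AT replicate 2), led by Ighm (1.09 ± 0.34), Jchain (0.92 ± 0.37) and Ms4a1 (0.58 ± 0.23). The 8 markers of T and NK cells summed to 1.27 to 3.47 CPM, with Cd3e at 0 in ADCY3∆AT replicate 1 and Nkg7 at 0 there and in wild-type replicate 1. Of 4 tested, Trbc2 had 1.04 ± 0.82, Cd3d 0.41 ± 0.59 and Cd4 0.26 ± 0.39, and without ADCY3∆AT replicate 2 only 1 of the 4 was positive, with a median of -0.13.

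The 8 erythroid markers summed to 2010, 1426 and 1377 CPM across the wild-type libraries, whereas the ADCY3∆AT libraries had 1330, 1358 and 1463 CPM. The groups overlapped. Hbb-bt had -0.29 ± 0.13 and Hbb-bs -0.25 ± 0.13 (SE), and Hemgn, a marker of red cell precursors, was at 0 in 4 of the 6 libraries. The 7 mural cell markers summed to 653 to 793 CPM, with Notch3 at 0.36 ± 0.11, Rgs5 at 0.08 ± 0.07 and Kcnj8 at -0.09 ± 0.08. Of the 6 Schwann cell markers 5 had a negative fold change, among them Mbp (-0.23 ± 0.08) and Ncam1 (-0.49 ± 0.20). Among brown adipocyte markers Elovl3 had -0.38 ± 0.11 and passed in DESeq2 (adjusted p = 0.033), and the others named by p-value were Lipe at 0.09 ± 0.05 and Ppargc1a at -0.17 ± 0.13. The lowest p-values of the muscle list belonged to Tnni1 (-5.57 ± 0.83), Myh7 (-5.08 ± 0.77) and Myh2 (-4.27 ± 0.82), and the sizes for genes at or near 0 are uncertain. In the muscle list Tnni1 passed in DESeq2 (adjusted p = 1.51e-09). In edgeR without the filter on low counts 8 of 12 genes passed, in a fit that called 59 genes higher and 155 lower of 30714. With the filter 0 of the 12 passed, where 1 of all 18114 genes did. The part of these cell types in the mitosis result was not tested.

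**Figure D5:**
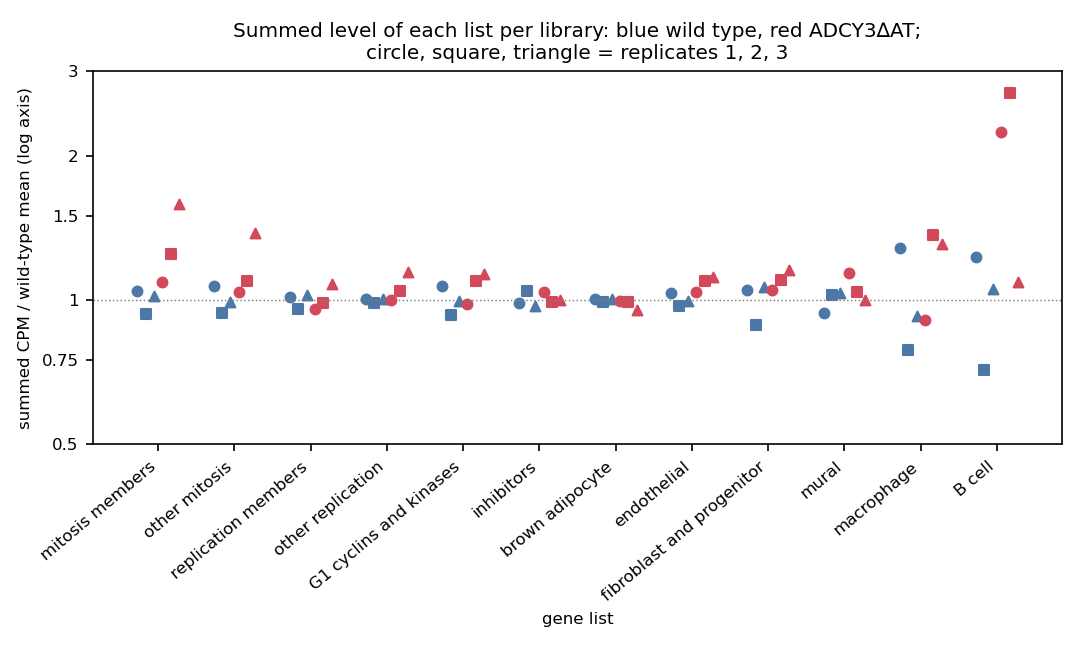
Summed CPM of each gene list divided by its mean over the wild-type libraries (y axis, log scale), with wild type in blue, ADCY3∆AT in red and replicates 1 to 3 as circle, square and triangle. For the mitosis members and the other mitosis genes ADCY3∆AT replicate 3 stands highest, at sums of 173 and 195 CPM, while for B cell markers it lies within the wild-type range.

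Summed over the 27 mitosis genes, the wild-type libraries stood at 114, 102 and 111 CPM and those of ADCY3∆AT at 119, 136 and 173 CPM, a ratio of means of 1.31 that was 1.17 without ADCY3∆AT replicate 3. Summed over the 13 replication genes, the wild-type libraries stood at 126, 119 and 127 CPM and those of ADCY3∆AT at 119, 122 and 134 CPM, a ratio of 1.01 that was 0.97 without that library. The mitosis sums did not overlap between the groups and the replication sums did.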

How the data were processed

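Total RNA of interscapular brown adipose tissue was sequenced as paired-end NEBNext Ultra II libraries, per the labels' protocols. The authors deposited 1 table of raw estimated counts, with Ensembl gene identifiers as its lines and 31.6% fractional values. The submitters' processing notes list Salmon, StringTie, edgeR and GRCm38 but give neither version nor role. No source used here states settings, strand use or filters. A quantifier that divides reads among similar transcripts can move counts between related genes. Of 54385 rows, 54131 matched a gene in GENCODE M21 (GRCm38).

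Estimated counts were rounded, filtered with filterByExpr (18114 genes), scaled by TMM and tested with edgeR 4.0.16 (R 4.3.3) by the quasi-likelihood F test with genotype as the only term and Benjamini-Hochberg adjustment over all genes tested (threshold 0.05). Standard errors were the absolute log2 fold change over the square root of F. Levels are CPM after TMM scaling, and log2 CPM used a prior count of 2. Alternatives were DESeq2 1.42.0, limma voom 3.58.1, scaling by RLE or by library totals alone, no filter, at least 1 CPM in at least 3 libraries, leaving out each library, and the replicate number as a block. The fits were also run on simulated counts with 200 changed genes. Each gene was drawn independently there, so these runs do not bear on a shift shared by many genes. Chi-square per degree of freedom between libraries was 24.1 to 71.7, so none was treated as a duplicate.

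Members and lists were chosen with earlier results of these data known. All 40 members could be named, and in each other list the 3 genes with the lowest p-values, with Foxm1, Cdkn1a and Adcy3 added. In 2 of these lists 1 such gene is not reported here. Ccnb2-ps, Ckm, Cd3e, Nkg7 and Hemgn were named after their values were seen. Depth limits the rarest member to 16 to 48 counts per library, and the error given for it is that of counting alone. RefSeq supplied the promoter sequences.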

Additional observations from a re-analysis of the deposited data

How the results depend on the processing

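No member and no other pathway gene passed the threshold under any alternative run. The mitosis median log2 fold change ranged from 0.36 to 0.38 over the alternatives that kept all libraries, and from 0.24 to 0.49 when 1 library was left out, with the extremes without ADCY3∆AT replicates 3 and 1. The replication median ranged from -0.01 to 0.12 when 1 library was left out, and the difference between both medians from 0.25 to 0.43. Mitosis genes higher at an unadjusted p under 0.05 numbered 12, with a range of 5 to 17 when 1 library was left out. Positive replication genes numbered 11, with a range of 6 to 11, the count being 7 without wild-type replicate 2. Replication genes at an unadjusted p under 0.05 numbered 2, and 1 with library totals alone, in limma voom and without a low-count filter, 0 in DESeq2 and 0 to 1 when 1 library was left out.

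The replicate number as a block gave a mitosis median of 0.37 and a replication median of 0.04, with 8 mitosis genes and 0 replication genes at an unadjusted p under 0.05, and Tyms at -0.00592. Same-numbered libraries of both groups had correlations of their deviations of -0.0857, -0.128 and -0.0864. For libraries with different numbers they ran from 0.00371 to 0.0926. The labels do not say what the numbers mean, so whether they pair the libraries is not known. In limma voom the signs of Kif15 (-0.01), Mcm6 (-0.00101) and Tyms (-0.00545) turned. When 1 library was left out, signs turned for 11 members, with log2 fold changes from -0.29 to 0.56 for Birc5, -0.24 to 0.20 for Kif15, -0.08 to 0.09 for Mcm2, -0.02 to 0.22 for Mcm3, -0.10 to 0.09 for Mcm6, -0.01 to 0.09 for Pcna, -0.01 to 0.16 for Pola1, -0.03 to 0.45 for Prc1, -0.08 to 0.19 for Rrm2, -0.23 to 0.30 for Tk1 and -0.14 to 0.12 for Tyms. The cause was not tested.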
